A study of Mus musculus with 54 samples.

Results

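The genes described here encode subunits of the phagocyte NADPH oxidase. They were the 5 genes Cybb, Cyba, Ncf1, Ncf4 and Rac2, chosen by their symbols out of the 39179 genes on which reads had been counted, and all 5 passed the filter on low counts. They were followed through the 15 conditions of 2 RNA-seq experiments on thioglycolate-elicited peritoneal macrophages of C57BL/6 mice, aged 8 to 20 weeks. In the polarization experiment, the macrophages of 3 mice were kept for 24 h without stimulus (M0), with LPS at 100 ng/ml plus IFNγ at 50 ng/ml (M1-like) or with IL-4 at 10 ng/ml (M2-like), and each of the 9 samples was sequenced as 2 technical replicates, which were summed. The reprogramming experiment had 12 conditions with 3 samples each. It held the 3 types M0, M1-like and M2-like untransfected, and the same 3 types treated with the transfection reagent only (mock). It also held M2-like macrophages transfected with a negative siRNA pool, with a pool against E2f1, Myc, Pparg or Stat6, or with these 4 pools combined, which gave the induced M1-like (iM1) macrophages. Polarization had lasted 24 h, and the transfected and mock samples were taken 48 h after transfection, in culture without IL-4. The study's methods place samples without transfection at 24 h after polarization, but do not say whether this covers the untransfected samples of this experiment. The macrophages were the adherent cells of the peritoneal exudate and were not sorted by a marker. The labels name the mouse only in the polarization experiment. For RNA extraction, in the part on quantitative PCR, the study's methods give 3 biological replicates each of M0, M1-like, M2-like and iM1 cells. They do not say this of the other conditions or name the mice. So p-values of the reprogramming experiment measure the spread between its samples, which may in part be technical.

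The phagocyte oxidase carries electrons from cytosolic NADPH across the phagosomal or plasma membrane to oxygen and so makes superoxide. Cybb encodes the catalytic subunit NOX2, and Cyba its membrane partner, without which NOX2 is not stable. Ncf1 encodes the organizer that links the cytosolic subunits to Cyba after phosphorylation, Ncf4 a cytosolic subunit that binds a phosphoinositide of the phagosome, and Rac2 the small GTPase of blood cells that completes the active complex. In macrophages the oxidase is known for the killing of ingested microbes, and loss of Cybb, Cyba, Ncf1 or Ncf4 causes chronic granulomatous disease.

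In GENCODE M21 (GRCm38), all 5 genes were protein coding. Cybb (ENSMUSG00000015340) lies on the minus strand of chromosome X, from 9435252 to 9487771. Cyba (ENSMUSG00000006519) lies on the minus strand of chromosome 8, from 122424776 to 122432930. Ncf1 (ENSMUSG00000015950) lies on the minus strand of chromosome 5, from 134220053 to 134229625. Its exons share 408 nucleotides with exons of Gtf2ird2 on the other strand, and whether strand was used in counting is not given in the sources used here. Gtf2ird2 had between 6.07 and 17.7 CPM (reads of the gene scaled to a common library size) in the 45 samples, so reads of these genes that fall in the shared part cannot be told apart. Ncf4 (ENSMUSG00000071715) lies on the plus strand of chromosome 15, from 78244801 to 78262580, and Rac2 (ENSMUSG00000033220) on the minus strand of the same chromosome, from 78559167 to 78572783.

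The table of RefSeq promoters held 3 of the 5 genes. Their 250 bases before the RefSeq start are shown, chosen only because the table held them. How motif matches relate to the response of these genes was not tested. None of the windows touches an exon of GENCODE M21. They are written from 5′ to 3′ in the direction of the gene (GRCm38.p6, minus strand in each case), and capitals mark matches to the motifs named below.
Cybb, chrX:9469325-9469574: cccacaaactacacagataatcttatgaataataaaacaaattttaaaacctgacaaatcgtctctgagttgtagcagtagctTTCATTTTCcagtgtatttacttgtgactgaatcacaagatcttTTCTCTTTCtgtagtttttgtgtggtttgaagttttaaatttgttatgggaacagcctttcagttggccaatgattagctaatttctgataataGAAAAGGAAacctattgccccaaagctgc
Cyba, chr8:122432941-122433190: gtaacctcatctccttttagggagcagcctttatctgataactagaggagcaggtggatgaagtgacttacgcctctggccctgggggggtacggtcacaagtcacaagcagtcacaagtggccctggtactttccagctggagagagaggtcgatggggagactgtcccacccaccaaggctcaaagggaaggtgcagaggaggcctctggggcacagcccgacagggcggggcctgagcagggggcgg
Ncf1, chr5:134229626-134229875: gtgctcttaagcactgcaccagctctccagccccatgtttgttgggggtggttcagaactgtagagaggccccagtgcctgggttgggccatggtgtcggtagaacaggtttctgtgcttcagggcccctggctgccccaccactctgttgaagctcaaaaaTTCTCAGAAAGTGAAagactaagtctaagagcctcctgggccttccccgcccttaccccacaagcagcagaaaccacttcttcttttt
Both strands were searched for 8 motifs. These were GAGGAA, a form of PU.1 site, the IRF-type repeat GAAANNGAA and the E-box CACGTG of Myc. Also searched were the STAT-type palindromes TTCNNNGAA (the GAS element) and TTCNNNNGAA (the spacing of STAT6). The others were the direct repeat of PPARγ (2 copies of AGGTCA with 1 base between them) and the E2F forms TTTGGCGC and TTTCGCGC. Other forms of PU.1 sites were not searched. The Cybb window held 3 matches to the IRF-type repeat, between 167 and 159 and between 123 and 115 bases before the start on the opposite strand, and between 29 and 21 bases before the start on the same strand. The Ncf1 window held 1 match to the IRF-type repeat, 82 to 74 bases before the start, and 1 match to TTCNNNGAA, 88 to 80 bases before it, and these overlap. The Cyba window held no match to any of the 8 motifs. Of 32851 promoter windows of the same length, 7.13% held the IRF-type repeat and 7.02% held TTCNNNGAA. The share was 23.3% for GAGGAA, 5.85% for TTCNNNNGAA, 6.02% for CACGTG, 0.0335% for the PPARγ repeat, 0.417% for TTTGGCGC and 0.256% for TTTCGCGC. The Cybb window had 34.0% G and C, against 60.0% for Cyba and 54.4% for Ncf1. A match describes letters only and does not show that a factor binds.

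The libraries held 13421854 to 29880494 counted reads. In comparison with the negative pool, each siRNA pool lowered its target, by 1.98 on the log2 scale for E2f1, 1.38 for Myc, 2.19 for Pparg and 1.87 for Stat6, and in iM1 macrophages by 0.73, 1.34, 1.82 and 0.89. With some single pools, a gene of these 4 other than the target was lower too, and why was not tested. Of the 4, 2 were lower at an adjusted p under 0.05 with the E2f1, Myc or Stat6 pool, and only 1 with the Pparg pool. The negative pool itself had 1 of the 4 lower against M2-like mock. All 7 macrophage markers, among them Adgre1, Csf1r and Lyz2, were above 0 in 45 of 45 samples, with a summed level of 6211 to 18320 CPM that was lowest in the M1-like samples of the reprogramming experiment. Of 10 neutrophil genes, S100a8 (3.10 to 13.4 CPM) and Mmp8 (0.587 to 109.6 CPM) were above 0 in all samples, Cxcr2 was at 0 in 6, and the other 7, among them S100a9, Ly6g and Mpo, were at 0 in 29 to 43 of the 45. Together the 10 summed to at most 113.6 CPM. T cell markers summed to 1.504 CPM or less, and B cell, mast cell, eosinophil and fibroblast or mesothelial markers to at most 33.2, 9.475, 46.07 and 231.7 CPM. Of the 4 eosinophil genes, Siglecf reached 45.8 CPM and Ccr3 at most 0.718 CPM. Epx and Prg2 were at 0 in 39 and 40 of the 45 samples, so that the higher sums of this list come from Siglecf. In bulk RNA, fewer cells of a type and less RNA per cell cannot be told apart.

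At 24 h, all 5 genes rose in M1-like macrophages in comparison with M0, Cybb by far the most, although the value of Ncf1 had the other sign when scaled to library totals. CPM are given on TMM-scaled library sizes, differences as log2 fold changes with their standard error, and adjusted p-values are from edgeR's quasi-likelihood test with Benjamini-Hochberg adjustment over all genes tested, with 0.05 as threshold. A gene is said to have risen or fallen only when it passed. In this comparison 72.9% of all genes tested passed, 35.4% as higher, so that 5 of 5 is to be read against a background in which most genes changed. In M1-like against M2-like macrophages 5 of 5 rose (background 72.6%, 34.6% higher), and in M2-like against M0 3 of 5 fell (background 27.9%, 14.4% lower). The 3 comparisons share their samples in pairs and are given side by side.

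Cybb, the catalytic subunit, had 1239, 1200.1 and 1198 CPM in the M0 samples of mouse 1, 2 and 3, 5798, 5579 and 5562 CPM in the M1-like samples and 627, 501 and 432 CPM in the M2-like samples. The 3 groups did not overlap, with M1-like highest and M2-like lowest. Cybb rose 4.66-fold in M1-like against M0 (log2 fold change 2.22, SE 0.11, adjusted p = 2.957e-09) and fell 2.33-fold in M2-like against M0 (log2 fold change -1.22, SE 0.11, adjusted p = 1.141e-05). The M1-like and M2-like means thus lay 10.9-fold apart (log2 fold change 3.44, SE 0.12, adjusted p = 8.27e-11).

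Cyba, the membrane partner, had 731, 682 and 666 CPM in M0, 1028, 1079.7 and 1087 CPM in M1-like samples and 547, 714 and 765 CPM in M2-like samples. All M1-like samples were above the others, and the M0 and M2-like samples overlapped. Cyba rose 1.54-fold in M1-like against M0 (log2 fold change 0.62, SE 0.10, adjusted p = 0.0001814), and against M2-like the log2 fold change was 0.66 (adjusted p = 0.0001142). In M2-like against M0 it was -0.037 (SE 0.10, adjusted p = 0.8241).

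Of the cytosolic subunits, Ncf1 had 260.36, 241 and 252 CPM in M0, 271, 302 and 311 CPM in M1-like samples and 164, 158 and 162 CPM in M2-like samples. The 3 groups did not overlap, but the step from M0 to M1-like was small. Ncf1 fell in M2-like against M0 (log2 fold change -0.64, SE 0.065, adjusted p = 3.171e-05), whereas in M1-like against M0 the log2 fold change was 0.23 (SE 0.065, adjusted p = 0.006638) with TMM and -0.20 (adjusted p = 0.01506) with library totals, that is, of the other sign. The share of Ncf1 reads that could come from Gtf2ird2 was not tested. Ncf4, the subunit that binds the phosphoinositide, had 165, 161 and 154 CPM in M0, 238, 248 and 272 CPM in M1-like samples and 161, 159.88 and 159 CPM in M2-like samples. Its M0 and M2-like samples overlapped and all M1-like samples were higher. Ncf4 rose in M1-like against M0 (log2 fold change 0.66, SE 0.062, adjusted p = 1.163e-06), with a difference of 0.002 (SE 0.062, adjusted p = 0.9864) between M2-like and M0.

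Rac2, the GTPase, had 127, 121 and 119 CPM in M0, 165, 175 and 203 CPM in M1-like samples and 66.0, 78.5 and 84.0 CPM in M2-like samples. As for Cybb, the groups were in the order M1-like, M0, M2-like without overlap. Rac2 rose in M1-like against M0 (log2 fold change 0.57, SE 0.095, adjusted p = 0.0001702), fell in M2-like against M0 (log2 fold change -0.68, SE 0.095, adjusted p = 0.0003349) and lay 2.38-fold above M2-like in the M1-like samples (log2 fold change 1.25, SE 0.096, adjusted p = 1.784e-07).

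The size of these differences depended on scaling. With library totals in place of TMM, an alternative chosen after the data had been seen, the median gene moved by -0.43 on the log2 scale in M1-like against M0 and by -0.44 in M1-like against M2-like. The M1-like against M0 values were then 1.79 for Cybb and 0.23 for Ncf4, which still passed, and 0.19 (adjusted p = 0.1192) for Cyba and 0.14 (adjusted p = 0.194) for Rac2, which did not. In M1-like against M2-like, Cybb (3.01), Ncf1 (0.43), Ncf4 (0.22) and Rac2 (0.81) still passed, and Cyba did not (0.22, adjusted p = 0.07879).

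Marker lists moved with these comparisons. At 24 h, summed macrophage markers were 10280 to 11300 CPM in M1-like samples, 16110 to 17380 CPM in M0 and 12710 to 13040 CPM in M2-like samples, with 3 of 7 markers higher and 3 lower in M1-like against M0, and 3 higher and 4 lower against M2-like. Summed neutrophil markers were 10.14 to 15.19 CPM in M1-like samples and 29.5 to 42.36 CPM in the others. Of the 4 that were tested, however, 2 were higher and 2 lower in M1-like against M0 and against M2-like, where Mmp8 had a log2 fold change of -5.50 and S100a8 of 0.89. Eosinophil markers summed to 0.2705 to 0.8174 CPM in M1-like and 14.05 to 19.1 CPM in the other samples, and mesothelial and fibroblast markers to 2.486 to 3.974 CPM and 8.523 to 16.77 CPM. Siglecf, the main gene of the eosinophil list, had a log2 fold change of -4.89 in M1-like against M2-like. B cell markers summed to 4.918 to 5.243 CPM in M1-like, 5.501 to 10.06 CPM in M0 and 4.259 to 13.75 CPM in M2-like samples, and mast cell markers to 1.303 to 1.436, 2.114 to 3.902 and 0.6715 to 2.107 CPM. The part of these lists in the differences was not tested.

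**Figure D1:**
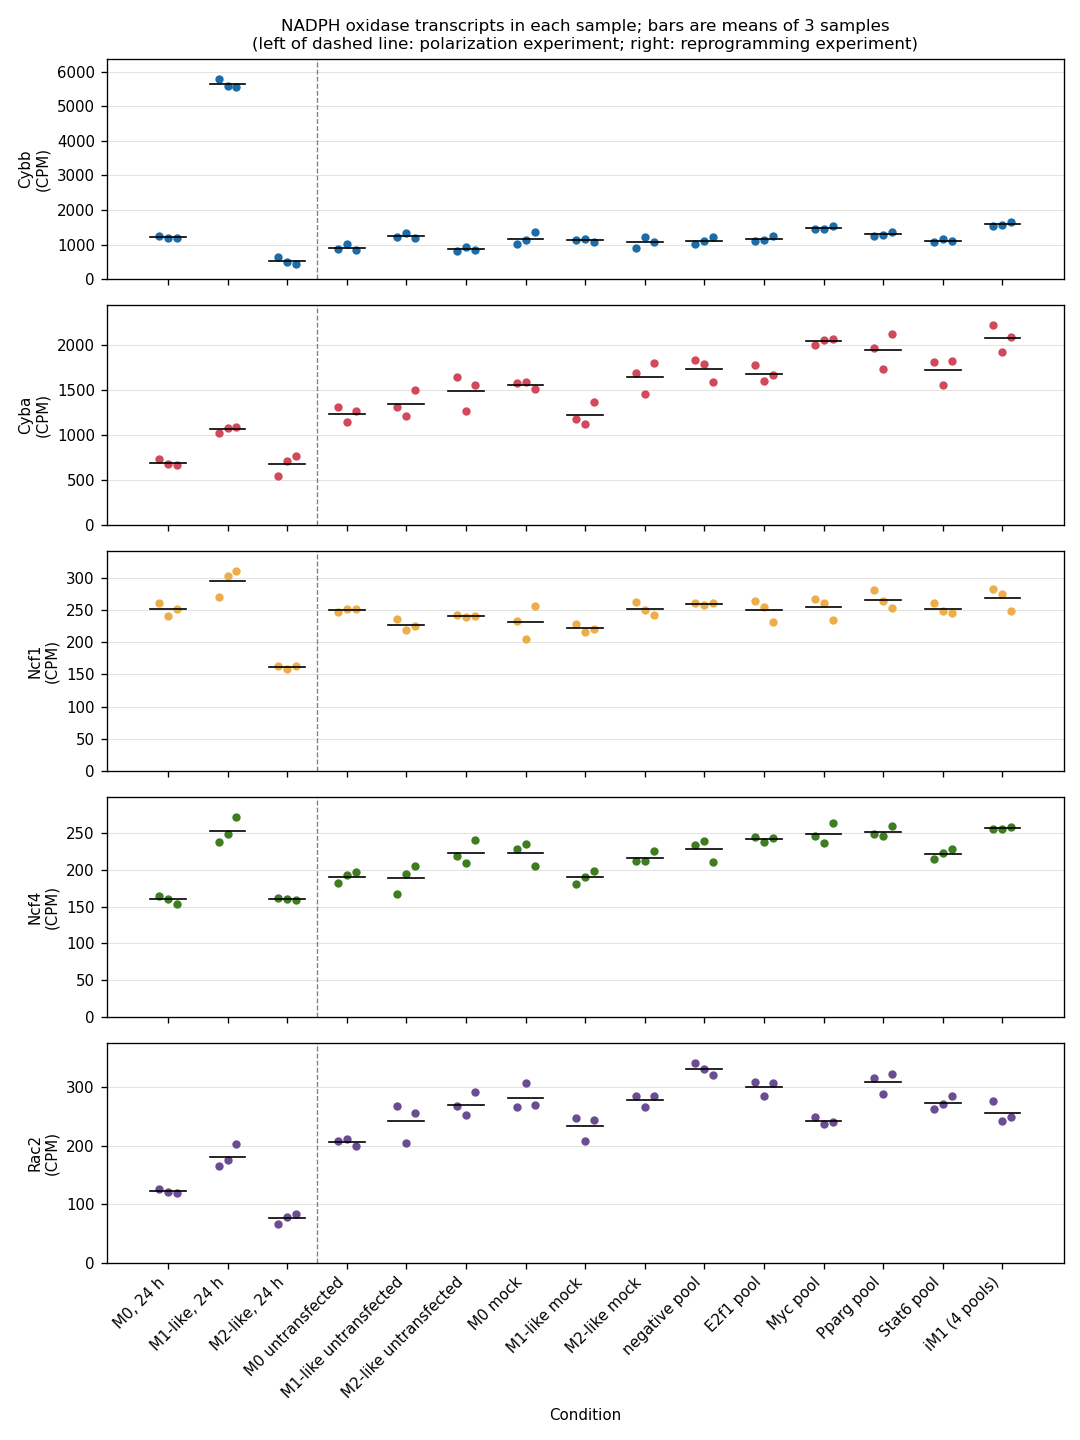
Level of Cybb, Cyba, Ncf1, Ncf4 and Rac2 (CPM on TMM-scaled library sizes, linear axes from 0) in each of 45 samples by condition, with points for samples and bars for means of 3. At 24 h the M1-like samples are the highest for every gene, although for Ncf1 the difference from M0 changes sign with library totals. Cybb in untransfected M1-like samples of the reprogramming experiment, at 1190 to 1339 CPM, is below the 5562 to 5798 CPM of the polarization experiment. The experiments were scaled separately and differ in read length and sequencing facility, so these and the culture cannot be told apart.

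Per length of exon, Cyba had the highest mean level of the 5 transcripts in every condition. Levels of different genes were compared as CPM per kb of the exon union, which is 5.808 kb for Cybb, 1.039 kb for Cyba, 3.663 kb for Ncf1, 2.020 kb for Ncf4 and 3.103 kb for Rac2. At 24 h Cyba had 667 CPM per kb in M0, 1025 in M1-like samples and 650.17 in M2-like samples, and Cybb had 209, 972 and 89.5 CPM per kb. Cyba thus stood at 3.20 ± 0.10 (SD, n = 3) times the level of Cybb in M0, at 1.06 ± 0.06 times in M1-like samples, where the lowest sample had 0.991, and at 7.58 ± 2.54 times in M2-like samples. The 5 levels summed to 1063 ± 42.0 CPM per kb in M0, 2261 ± 28.0 in M1-like samples and 887 ± 94.8 in M2-like samples. Cybb made up 19.7 ± 0.40%, 43.0 ± 1.5% and 10.3 ± 3.2% of this sum.

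**Figure D2:**
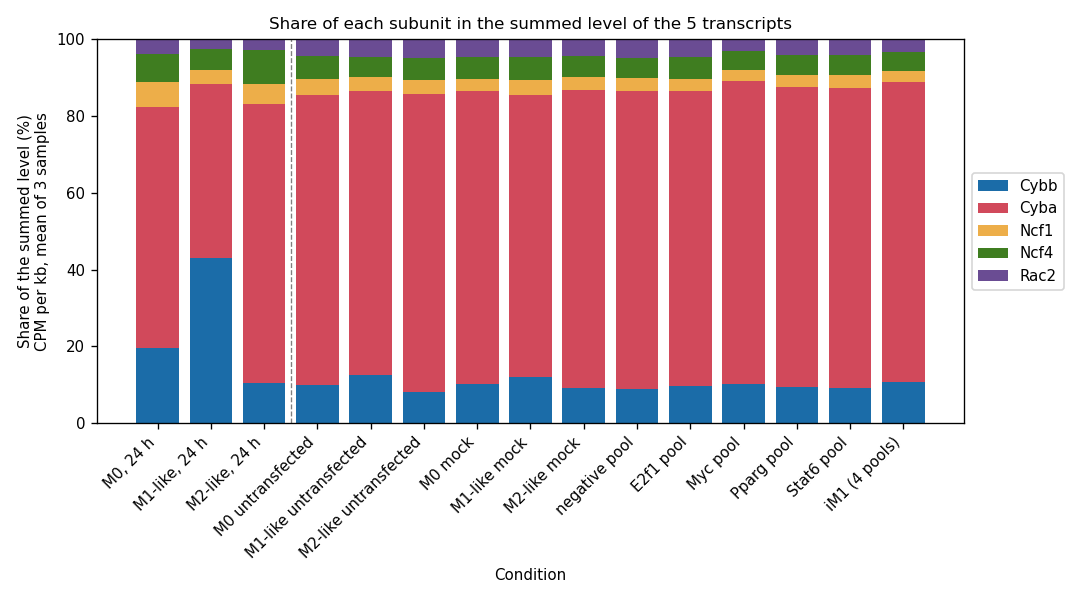
Share of each subunit (%, from means of 3 samples) in the summed CPM per kb of the 5 transcripts in each condition, with the polarization experiment to the left of the dashed line. Cyba is the largest part of every bar, and the Cybb share, 43.0% in M1-like macrophages at 24 h, lies between 8.16 and 12.4% throughout the reprogramming experiment.

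In the reprogramming experiment the proportions were more even. The share of Cybb ran from 8.16% in untransfected M2-like to 12.4% in untransfected M1-like macrophages, and that of Cyba from 73.5 to 79.0%. Mean ratios of Cyba to Cybb ran from 6.06 ± 0.98 in untransfected M1-like samples, which overlapped with M1-like mock at 6.14 ± 0.89, to 9.75 ± 1.93 in untransfected M2-like samples, which overlapped with M2-like mock at 8.90 ± 1.98 (SD, n = 3). Rac2 can be set against Rac1, the GTPase found in most cell types, which can also serve the oxidase of macrophages. Per kb, Rac2 stood at 0.588 ± 0.025 times Rac1 in M0, 0.828 ± 0.112 times in M1-like samples and 0.354 ± 0.063 times in M2-like samples at 24 h. In the reprogramming experiment this ratio ran from 0.821 in untransfected M0 to 1.66 in cells with the Pparg pool. The experiments also differ in read length and in the facility that sequenced them, so that these and the culture cannot be told apart in levels set across them.

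**Figure D3:**
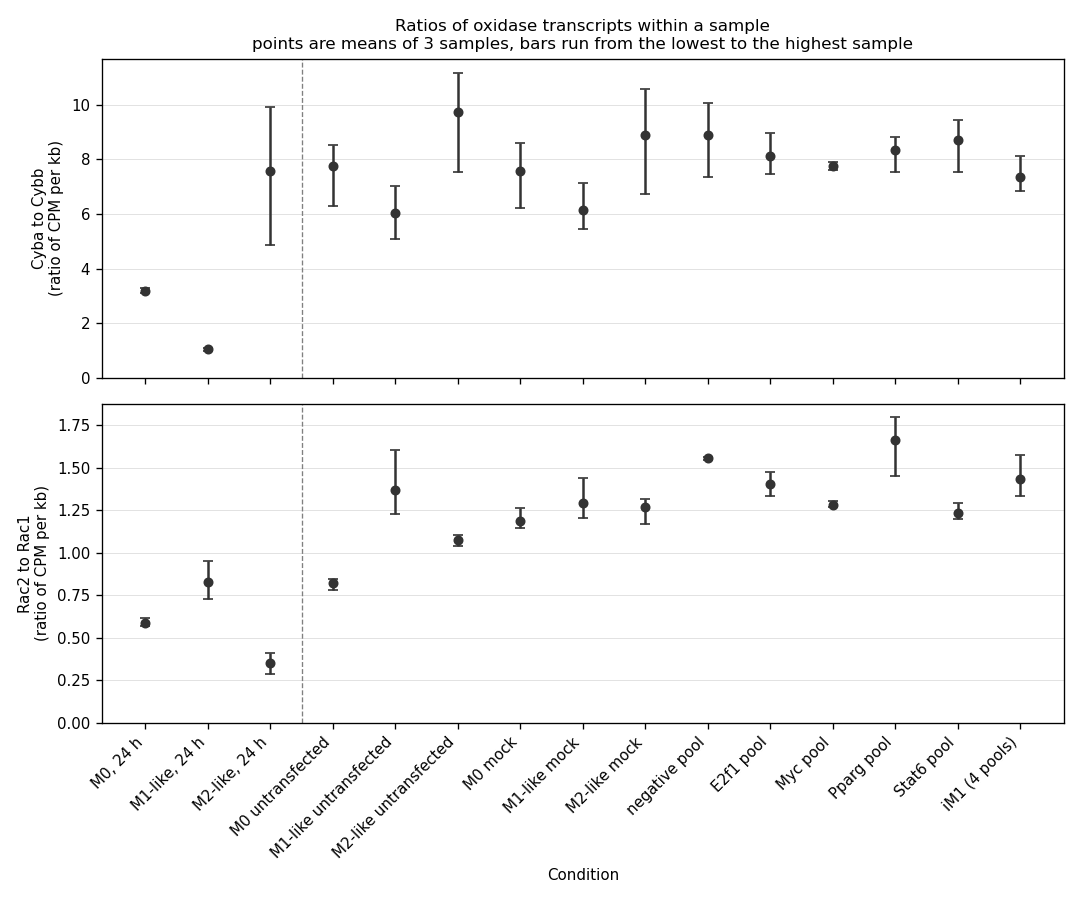
Ratio of Cyba to Cybb (top) and of Rac2 to Rac1 (bottom) in CPM per kb by condition, with points for means of 3 samples and bars from the lowest to the highest sample. With the exon union as length, Cyba and Cybb come closest in M1-like macrophages at 24 h, with a ratio of 1.06. Rac2 exceeds Rac1 on average in 11 of the 12 reprogramming conditions with that length.

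Of the other oxidase genes, 11 were looked at and 3 passed the filter on low counts. Cybc1, the chaperone needed for a stable NOX2 and Cyba pair, had 68.8 ± 0.28 CPM in M0, 231 ± 6.5 CPM in M1-like samples and 64.9 ± 0.26 CPM in M2-like samples (SD, n = 3) at 24 h. It rose in M1-like against M0 (log2 fold change 1.75, SE 0.05, adjusted p = 2.108e-11) and against M2-like (log2 fold change 1.83, adjusted p = 1.459e-11). Cybc1 was also higher in M1-like samples of the reprogramming experiment, by 0.81 and 0.73 on the log2 scale against untransfected M0 and M2-like, and by 0.89 and 0.79 in the mock samples. Rac1 had 301, 318 and 314 CPM at 24 h in M0, M1-like and M2-like samples, in that order, and passed in none of the 3 comparisons. Noxo1, the organizer of another NADPH oxidase, was detected at 0.06 to 1.18 CPM only. Nox1, Nox3 and Nox4, catalytic subunits of other tissues, and Noxa1, Duox1, Duox2, Duoxa1 and Duoxa2 reached at most 0.28 CPM in any sample.

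Genes around the oxidase were counted in 4 lists. In M1-like against M2-like at 24 h, 34.6% of all genes tested were higher and 38.1% lower, with a median log2 fold change of -0.057. Of 12 genes of the Rac exchange and GTPase cycle, 7 were higher and 3 lower (median 0.29), with the Rac exchange factors Prex1 (2.29) and Vav1 (1.96) higher and the GTPase-activating Arhgap25 (-2.29) lower. Of 12 kinases of oxidase activation, 2 were higher, Pik3cd (1.50) and Syk (0.94), and 7 lower, among them the protein kinase C gene Prkcb (-3.42). Of 8 tested genes of charge and superoxide handling, 5 were higher and 3 lower (median 1.61). Among them, Sod2, the mitochondrial superoxide dismutase, rose by 4.58, and Hvcn1, the proton channel that balances the charge moved by the oxidase, had -0.69. Of 10 tested transcription factors, 7 were higher and 2 lower (median 1.68), with Irf1 at 5.40 and Cebpa at -2.54. All values in this paragraph are log2 fold changes, and all named genes passed.

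In the reprogramming experiment, the LPS and IFNγ samples did not stand above the others for the 5 genes as a group. Among untransfected samples, 2 of 5 rose in M1-like against M0 (background 57.7%, 29% higher), 2 of 5 rose in M2-like against M0 (background 19.9%, 10.7% higher), and in M1-like against M2-like 1 rose and 1 fell (background 61.5%, 31.3% higher and 30.2% lower). Among mock samples, 3 of 5 fell in M1-like against M0 (background 60.4%, 30% lower) and 4 of 5 in M1-like against M2-like (background 60.7%, 29.8% lower). In M2-like mock against M0 mock 0 of 5 passed (background 3.83%), and edgeR without adjustment at p under 0.05 and DESeq2 also gave 0.

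Cybb had 859.95, 1014 and 830.33 CPM in untransfected M0, 1212, 1339 and 1190.3 CPM in M1-like samples and 822, 941 and 828 CPM in M2-like samples. All M1-like samples were above the others, and M0 and M2-like overlapped. Cybb rose in M1-like against M0 (log2 fold change 0.47, SE 0.096, adjusted p = 0.0001091) and against M2-like (log2 fold change 0.53, SE 0.096, adjusted p = 1.824e-05). In the mock samples Cybb had 1023, 1119 and 1353 CPM in M0, 1128, 1151 and 1075 CPM in M1-like samples and 893, 1213 and 1070.4 CPM in M2-like samples, which all overlapped. There the M1-like against M2-like log2 fold change was 0.079 (adjusted p = 0.4943), and 0.30 (adjusted p = 0.01033) with library totals.

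Cyba had 1576, 1589 and 1508 CPM in M0 mock, 1175, 1124 and 1373 CPM in M1-like mock and 1688, 1457 and 1804 CPM in M2-like mock samples. The M1-like mock samples were the lowest, without overlap. Cyba fell in M1-like against M0 mock (log2 fold change -0.35, SE 0.099, adjusted p = 0.003035) and against M2-like mock (log2 fold change -0.43, SE 0.099, adjusted p = 0.0003651). With library totals these values were -0.14 (adjusted p = 0.1683) and -0.21 (adjusted p = 0.03512). In untransfected M2-like against M0, Cyba lay close to the threshold (0.27, adjusted p = 0.05202). It passed there with RLE size factors (adjusted p = 0.04433), without a filter (0.02406), with at least 10 counts in every sample (0.04156), with the replicate number as a block (0.01288) and by DESeq2 (0.03005), and without M2-like replicate 2 (0.37, adjusted p = 0.01182). In untransfected M1-like against M0 it had 0.12 (adjusted p = 0.3215) and passed with library totals (0.21, adjusted p = 0.04215). In M1-like against M2-like it had -0.15 (adjusted p = 0.1816) and passed without M2-like replicate 2 (-0.26, adjusted p = 0.03275).

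The cytosolic subunits differed less. Ncf1 lay between 205 and 283 CPM in the 36 samples of the experiment, with 222 ± 5.81 CPM in M1-like mock and 251 ± 9.96 CPM in M2-like mock samples (SD, n = 3). It passed in M1-like against M2-like mock (log2 fold change -0.18, SE 0.068, adjusted p = 0.02198), but had 0.038 with library totals, the other sign, and did not pass without a filter (adjusted p = 0.06933), with only the groups compared in the model (0.05043), or without M1-like mock replicate 2 (adjusted p = 0.0705) or M2-like mock replicate 1 (adjusted p = 0.0916). Ncf4 had 228, 234 and 205 CPM in M0 mock, 180.35, 190.42 and 198 CPM in M1-like mock and 212, 211 and 225 CPM in M2-like mock samples. The M1-like mock samples were below the others. Ncf4 passed as lower in M1-like against M0 mock (log2 fold change -0.23, SE 0.069, adjusted p = 0.004865) and against M2-like mock (log2 fold change -0.19, SE 0.069, adjusted p = 0.01908), but with library totals had -0.019 and, with the other sign, 0.03, neither of which passed. Without M1-like mock replicate 1 or M2-like mock replicate 3, the second comparison did not pass either (adjusted p = 0.091 and 0.08201), nor did it without a filter (adjusted p = 0.05559). Among untransfected samples, Ncf4 had 0.22 in M2-like against M0 (adjusted p = 0.02141) and -0.24 in M1-like against M2-like (adjusted p = 0.003749), and neither passed with library totals (0.12 and -0.041). The first was lost without a filter (adjusted p = 0.07375), without M0 replicate 1 (adjusted p = 0.107) or M2-like replicate 3 (adjusted p = 0.1288) and the second without M1-like replicate 1 (adjusted p = 0.05669).

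Rac2 had 208, 211 and 198 CPM in untransfected M0, 267, 205 and 256 CPM in M1-like samples and 266, 251 and 291 CPM in M2-like samples. All M2-like samples were above M0, and the M1-like samples, of which replicate 2 was low, overlapped both. Rac2 rose in M2-like against M0 (log2 fold change 0.39, SE 0.082, adjusted p = 0.0007132), whereas at 24 h it had fallen in that comparison. In M1-like against M0 it passed as well (log2 fold change 0.24, SE 0.082, adjusted p = 0.01348), but not with only the groups compared in the model (adjusted p = 0.07281), nor without M0 replicate 3 (adjusted p = 0.05644), M1-like replicate 1 (adjusted p = 0.1153) or M1-like replicate 3 (adjusted p = 0.06732). Without M1-like replicate 1 it passed in M1-like against M2-like (-0.23, adjusted p = 0.02654). In the mock samples Rac2 had 266, 306 and 269.55 CPM in M0, 246, 208 and 244 CPM in M1-like samples and 284, 265 and 284 CPM in M2-like samples. It passed as lower in M1-like against M0 (log2 fold change -0.27, SE 0.081, adjusted p = 0.004803) and M2-like (log2 fold change -0.26, SE 0.081, adjusted p = 0.007335), though not with library totals (-0.061 and -0.038) nor without M1-like mock replicate 2 (adjusted p = 0.05531 and 0.0756).

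**Figure D4:**
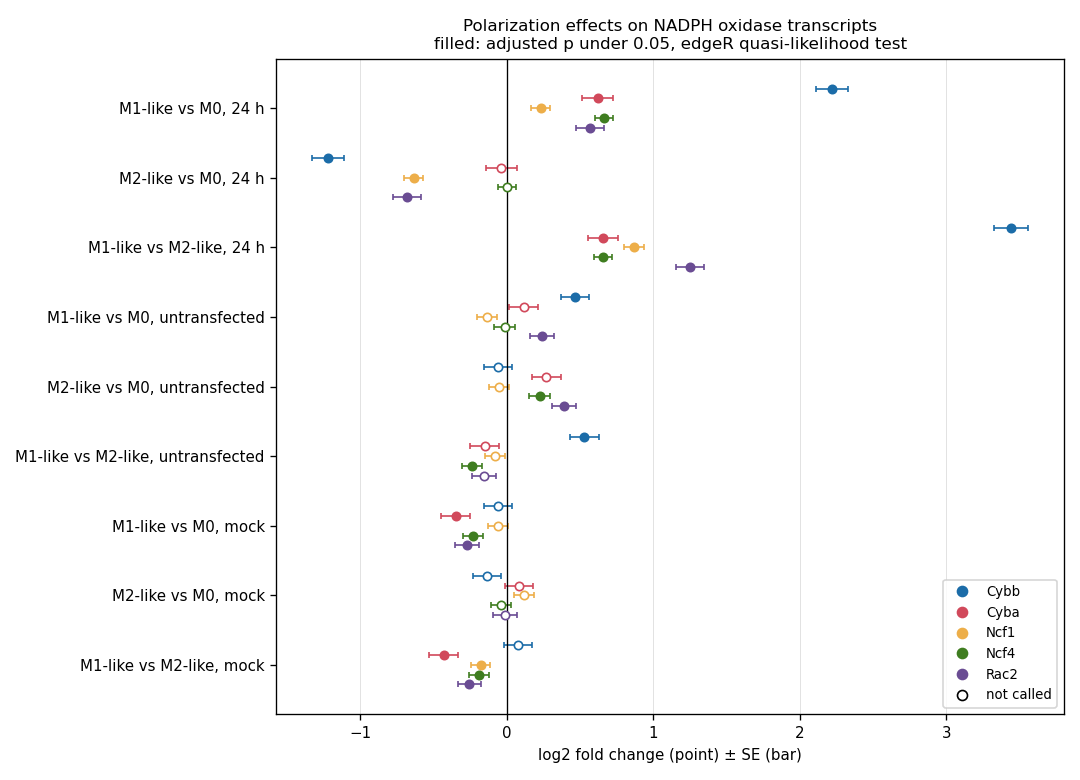
Log2 fold changes (points) with their standard errors (bars) of the 5 genes for M1-like against M0, M2-like against M0 and M1-like against M2-like macrophages at 24 h and, in the reprogramming experiment, untransfected and mock. Filled points have an adjusted p under 0.05 with TMM scaling. The M1-like values lie to the right at 24 h, up to 3.44 for Cybb, although Ncf1 against M0 has the other sign with library totals. They lie between -0.43 and 0.079 in the mock samples, where the signs of Ncf1 and Ncf4 against M2-like and of Cybb and Ncf1 against M0 change with library totals.

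Several marker lists, though not that of neutrophils, were lower in the M1-like samples of this experiment too. Summed macrophage markers were 6211 to 7786 CPM in untransfected and mock M1-like samples and 12780 to 18320 CPM in the M0 and M2-like samples. B cell markers summed to 0.6715 to 2.357 CPM against 6.009 to 33.2 CPM, mast cell markers to 0.1262 to 0.8032 CPM against 2.114 to 9.475 CPM, and eosinophil markers to 0.6105 to 1.703 CPM against 9.471 to 24.35 CPM. Mesothelial and fibroblast markers summed to 8.264 to 50.92 CPM against 49.15 to 219 CPM. Summed neutrophil markers overlapped, with 20.31 to 28.27 CPM in the M1-like samples and 19.14 to 48.14 CPM in the M0 and M2-like samples. In M1-like against M2-like mock, 6 of 7 macrophage, 4 of 4 B cell, 3 of 3 mast cell and 4 of 4 mesothelial and fibroblast markers tested were lower. Of 3 neutrophil genes tested there, 1 was higher and 1 lower. The part of these lists in the differences of the 5 genes was not tested.

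In M0 macrophages, 4 of the 5 genes were higher in mock than in untransfected samples. Since the latter may have been taken at another time, the reagent and the time in culture cannot be told apart. In mock against untransfected M0, Cybb rose by 0.37 (adjusted p = 0.005314), Cyba by 0.33 (adjusted p = 0.01521), Ncf4 by 0.22 (adjusted p = 0.01961) and Rac2 by 0.45 (adjusted p = 0.0001184) on the log2 scale (background 20.4%, 11.7% higher). Ncf1 had -0.11 (adjusted p = 0.284), and passed as lower only with library totals (-0.20, adjusted p = 0.02989). Ncf4 did not pass with library totals (0.13) and was lost without M0 replicate 1 or mock replicate 1 or 2, Cyba without M0 replicate 2 or mock replicate 2 (adjusted p = 0.09204 and 0.05025), and Cybb without mock replicate 3 (adjusted p = 0.07575). For Ncf4 the adjusted p was then 0.09815, 0.06899 and 0.1083, and it was 0.06898 without a filter and 0.05917 with only the groups compared in the model. In M1-like macrophages 0 of 5 passed (background 0%), as 0 of all genes passed by edgeR or DESeq2, and 438 genes but no member had an unadjusted p under 0.05. In M2-like macrophages 0 of 5 passed (background 1.77%) by edgeR or DESeq2, with 1 member at an unadjusted p under 0.05. Cybb had 0.29 there (adjusted p = 0.168) and passed without a filter (adjusted p = 0.04263) and without M2-like mock replicate 1 (0.40, adjusted p = 0.01948).

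In iM1 macrophages, Cybb and Cyba were higher and Rac2 lower than with the negative pool. Of the 5 genes, 2 rose and 1 fell (background 26.5%, 12.5% higher and 13.9% lower). Cybb had 1015, 1088 and 1213 CPM with the negative pool and 1529, 1574 and 1664 CPM in iM1 macrophages. The groups did not overlap, and Cybb rose 1.44-fold (log2 fold change 0.52, SE 0.096, adjusted p = 0.0001104). Cyba had 1830.1, 1793 and 1593 CPM with the negative pool and 2227, 1928 and 2097 CPM in iM1 macrophages, also without overlap. Cyba rose 1.20-fold (log2 fold change 0.26, SE 0.098, adjusted p = 0.0476), but only just passed. It did not pass without iM1 replicate 1 or 3 (adjusted p = 0.1851 and 0.1005) or negative pool replicate 1, 2 or 3 (adjusted p = 0.05573, 0.07092 and 0.2098). Rac2 had 341, 330.23 and 319 CPM with the negative pool and 276, 241 and 248 CPM in iM1 macrophages. All iM1 samples were lower, and Rac2 fell 1.29-fold (log2 fold change -0.37, SE 0.081, adjusted p = 0.0008521). Ncf4 had 233, 239 and 211 CPM with the negative pool and 255, 255 and 258 CPM in iM1 macrophages, which did not overlap, but it did not pass (log2 fold change 0.17, SE 0.069, adjusted p = 0.06858), except with only the groups compared in the model (adjusted p = 0.04907) and with library totals. Ncf1 had 0.049 (SE 0.068, adjusted p = 0.6375). With library totals, which moved the median gene by 0.13, Ncf1 (0.18) and Ncf4 (0.30) passed as higher, and Rac2 was lower at -0.24.

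Against M2-like mock, 3 of 5 rose in iM1 macrophages (background 37.1%, 19% higher). These were Cybb (log2 fold change 0.59, SE 0.096, adjusted p = 1.097e-05), Cyba (log2 fold change 0.34, SE 0.099, adjusted p = 0.007139) and Ncf4 (log2 fold change 0.24, SE 0.069, adjusted p = 0.005656), of which Cyba did not pass without M2-like mock replicate 2 (adjusted p = 0.06782). Ncf1 had 0.095 (adjusted p = 0.2882) and passed with library totals (0.26, adjusted p = 0.002771). Rac2 had -0.12 (adjusted p = 0.2551) and, with the other sign, 0.039 with library totals, so that Rac2 passed against the negative pool but not against mock. The negative pool itself differed from mock in 1 of 5 genes (background 11.7%, 6.67% higher). Rac2, with 284, 265 and 284 CPM in mock, was higher with the negative pool (log2 fold change 0.25, SE 0.081, adjusted p = 0.04102). This call did not hold with RLE size factors (adjusted p = 0.05642), without a filter (0.06075), or without any 1 of the 6 samples, M2-like mock or negative pool replicates 1, 2 and 3, where adjusted p ranged from 0.06049 to 0.1397.

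With the Myc pool, too, Cybb was higher and Rac2 lower. In comparison with the negative pool, 1 of 5 rose and 1 fell (background 29.6%, 13.9% higher and 15.6% lower). Cybb had 1449, 1456 and 1523 CPM with the Myc pool, above all negative pool samples (log2 fold change 0.42, SE 0.096, adjusted p = 0.001292). Rac2 had 248, 237 and 241 CPM, below all of them (log2 fold change -0.45, SE 0.081, adjusted p = 8.157e-05). Cyba had 1999.5, 2057 and 2074 CPM, also above all negative pool samples, but did not pass (0.23, adjusted p = 0.07258), and with library totals it did (0.37, adjusted p = 0.001547), as did Ncf4 (0.26). Cyba also passed without a filter (adjusted p = 0.04021), with the replicate number as a block (0.02097) and with only the groups compared in the model (0.009848). Against mock instead of the negative pool, Rac2 no longer passed (-0.20, adjusted p = 0.05031), and Cyba (0.31, adjusted p = 0.01275) and Ncf4 (0.20, adjusted p = 0.02093) did. The comparisons of iM1 and of the Myc pool share the negative pool samples.

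Against the negative pool, 0 of the 5 genes passed with the E2f1, Pparg or Stat6 pool, although Rac2 with the Stat6 pool passed under 4 alternatives. For the E2f1 pool (background 0.91%), log2 fold changes ranged from -0.14 for Rac2 to 0.087 for Ncf4, and 0 members passed by DESeq2 or without adjustment. For the Pparg pool (background 5.74%), Cybb had 1246, 1287 and 1364 CPM, above all negative pool samples (0.23, adjusted p = 0.1597), 2 members had an unadjusted p under 0.05, and DESeq2 called 0. Against mock, Cybb (0.30, adjusted p = 0.02985) and Ncf4 (0.22, adjusted p = 0.0269) passed with the Pparg pool. For the Stat6 pool (background 1.51%), Rac2 had 261, 271 and 284 CPM, below all negative pool samples (-0.28, SE 0.081, adjusted p = 0.0811), and it was the member with an unadjusted p under 0.05. Rac2 passed by DESeq2 (adjusted p = 0.03034), with the replicate number as a block (0.03305), with only the groups compared in the model (0.03723) and with library totals (0.0463).

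**Figure D5:**
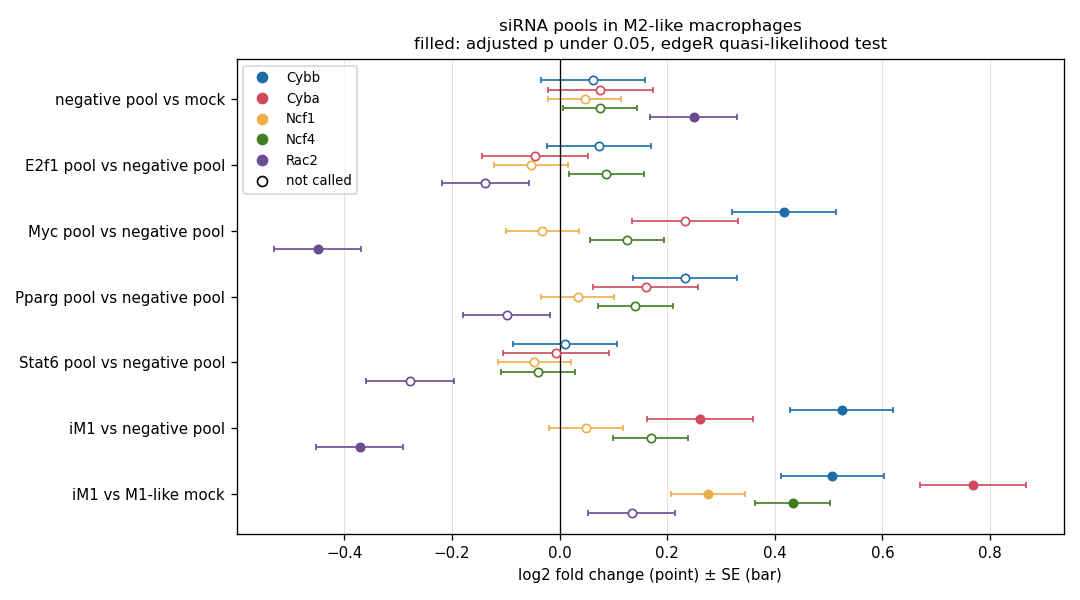
Log2 fold changes (points) with their standard errors (bars) of the 5 genes for the negative pool against M2-like mock, for each siRNA pool and iM1 against the negative pool, and for iM1 against M1-like mock, with filled points for an adjusted p under 0.05. Cybb lies to the right and Rac2 to the left for the Myc pool and iM1, at 0.42 and -0.45 and at 0.52 and -0.37.

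Summed neutrophil markers were 30.22 to 46.61 CPM with the negative pool, 53.19 to 61.75 CPM with the Myc pool, 56.62 to 63.52 CPM in iM1 macrophages and 88.96 to 113.6 CPM with the Pparg pool. Of the 3 neutrophil genes tested, 1 was higher and 1 lower in iM1 macrophages and with the Myc pool, and Mmp8 had a log2 fold change of 0.78 in iM1 macrophages. Of 7 macrophage markers, 1 was lower in iM1 macrophages and 5 with the Myc pool. Of 4 mesothelial and fibroblast markers tested, 1 and 2 were lower. The part of these lists in the differences was not tested. Around the oxidase, 12.5% of all genes tested were higher and 13.9% lower in iM1 macrophages against the negative pool (median 0.006). Of 12 genes of the Rac exchange and GTPase cycle, 1 was higher, Vav1 (0.45), and 7 lower (median -0.26), among them Arhgap25 (-0.75) and the Rac exchange factor Dock2 (-0.56). Of 12 kinases, 1 was higher, Mapk14 (0.30), and 3 lower (median -0.13), among them Prkcb (-0.54). Of 8 genes of charge and superoxide handling, 3 were higher and 1 lower (median 0.20), with Sod2 at 1.52. Of 11 transcription factors, 4 were higher and 1 lower (median 0.24), with the NF-κB genes Rela (0.52) and Nfkb1 (0.42) higher and Irf8 (-0.36) lower. Cybc1 rose by 0.28 (adjusted p = 0.00192) and Rac1 had -0.25 (adjusted p = 0.007318).

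In comparison with M1-like mock, the macrophages that had received LPS and IFNγ and the transfection reagent, 4 of 5 genes were higher in iM1 macrophages (background 52.9%, 27.2% higher). Cyba had 1224 ± 132 CPM in M1-like mock and 2084 ± 149.9 CPM in iM1 macrophages (SD, n = 3) and differed most (log2 fold change 0.77, SE 0.099, adjusted p = 9.285e-08). Cybb (log2 fold change 0.51, SE 0.096, adjusted p = 4.589e-05), Ncf4 (log2 fold change 0.43, SE 0.069, adjusted p = 3.721e-06) and Ncf1 (log2 fold change 0.28, SE 0.068, adjusted p = 0.0009617) were higher as well. In these 4 genes the samples did not overlap, but the share of all genes without overlap was not counted. All 4 passed with library totals too. Rac2 had 0.13 (SE 0.081, adjusted p = 0.1672). Per kb the 5 transcripts summed to 1600 ± 128 CPM in M1-like mock and 2561 ± 148 CPM in iM1 macrophages (SD, n = 3). Marker lists moved with this comparison. Higher in iM1 macrophages were 5 of 7 macrophage markers (sum 11810 to 12800 CPM against 6211 to 7203 CPM), 4 of 4 B cell markers (12.97 to 24.72 CPM against 0.9787 to 2.357 CPM) and 3 of 3 mast cell markers tested (4.195 to 5.231 CPM against 0.1741 to 0.3437 CPM). The same held for 4 of 4 mesothelial and fibroblast markers tested (114.8 to 177.6 CPM against 8.264 to 19.04 CPM) and for 1 of 1 eosinophil marker tested (22.98 to 35.15 CPM against 0.7366 to 1.277 CPM), and of 3 neutrophil genes 2 were higher and 1 lower. Their part in the differences of the 5 genes was not tested.

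Differences between polarization effects were tested directly. M1-like against M0 differed between mock and untransfected samples in 3 of 5 genes (background 9.07%, 5.85% lower), lower in mock by -0.53 for Cybb (adjusted p = 0.01078), -0.46 for Cyba (adjusted p = 0.03041) and -0.51 for Rac2 (adjusted p = 0.003302). Cyba did not pass without M0 replicate 2 or 3, M0 mock replicate 1 or 2, M1-like replicate 3 or M1-like mock replicate 1 or 2 (adjusted p from 0.05142 to 0.1069), and Ncf4 passed without M1-like replicate 1 (-0.30, adjusted p = 0.04383). With library totals only Rac2 passed (-0.39), while Cybb had -0.41 (adjusted p = 0.05323) and Cyba -0.35 (adjusted p = 0.06434). With only the groups compared in the model Cybb (adjusted p = 0.05511) and Cyba (0.05922) did not pass either. M1-like against M2-like did not differ past the threshold between mock and untransfected samples in any of the 5 genes (background 1.13%), with 1 at an unadjusted p under 0.05 and 1 by DESeq2. Cybb had -0.45 there (adjusted p = 0.153) and passed without a filter (adjusted p = 0.02056), with the replicate number as a block (0.04529), by DESeq2 (0.04794) and without M2-like mock replicate 1 (-0.56, adjusted p = 0.01892).

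Between untransfected samples of the reprogramming experiment and the 24 h samples, M1-like against M2-like differed in 5 of 5 genes (background 51.3%, 24% lower), from -0.78 for Cyba to -2.88 for Cybb. Of these, Cyba did not pass with library totals (-0.18). M1-like against M0 differed in 5 of 5 (background 49%, 24% lower), but with library totals only Cybb passed (-1.74 with TMM, -1.23 with totals), and Cyba (0.018), Ncf1 (0.16) and Rac2 (0.19) had the other sign. M2-like against M0 differed in 3 of 5 (background 17.2%, 8.49% higher), with 1.14 for Cybb, 0.56 for Ncf1 and 1.05 for Rac2. The experiments were sequenced with different read lengths and by different facilities, so these and the culture cannot be told apart.

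Over the 12 conditions of the reprogramming experiment, the highest mean exceeded the lowest 1.84-fold for Cybb, 1.70-fold for Cyba, 1.21-fold for Ncf1, 1.36-fold for Ncf4 and 1.60-fold for Rac2. Cybb was highest in iM1 macrophages at 1589 ± 68.8 CPM, followed by the Myc pool at 1476 ± 40.6 and the Pparg pool at 1299 ± 60.3 CPM (SD, n = 3). The samples of these 3 conditions did not overlap with each other, whereas every later pair of neighbours did. It was lowest in untransfected M2-like macrophages at 864 ± 66.8 CPM. Cyba, Ncf1 and Ncf4 were also highest in iM1 macrophages, but overlapped with the next condition in order. Rac2 was highest with the negative pool at 330.11 ± 10.7 CPM and lowest in untransfected M0 at 206 ± 6.62 CPM, and every pair of neighbours in its order overlapped. Means that are neighbours and overlap are not ranked against each other here.

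Among the members, Cyba and Ncf4 were most alike over the conditions. Pearson's r of their log2 condition means was 0.936 over all 15 conditions and 0.945 over the 12 of the reprogramming experiment. For Cybb and Rac2 it was 0.769 over 15 but 0.094 over 12 conditions. Of 9596 genes, the 3 most like Cybb over the 15 condition means were Marcksl1 (0.979), Vav1 (0.976) and Rasa4 (0.973), and those most like Cyba were Sap30 (0.949), Ptk2 (0.943) and Asb13 (0.939). For Ncf1 they were Dennd1c (0.913), Atxn1l (0.910) and Prmt2 (0.903), for Ncf4 Ptk2 (0.975), Mcoln2 (0.965) and Mier3 (0.949), and for Rac2 Rchy1 (0.911), Lrch3 (0.907) and Tmem189 (0.891). The conditions share libraries of the same experiment, so these values describe likeness only.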

How the data were processed

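Gene counts of 54 libraries (45 samples) were used as deposited. Per the submitters' processing notes and the study's methods, the authors trimmed reads with Trimmomatic, aligned them to mm10 with TopHat2 and counted reads per gene with featureCounts, so the deposited values are raw counts, not normalized. Versions, annotation release, strand setting and the treatment of reads with several alignments are not given in the sources used here. Of 39179 gene IDs, 37693 had a symbol in GENCODE M21. Libraries of the polarization experiment were 50 nt single end, with 19714994 to 29880494 counted reads each and 39577911 to 59443987 per sample after the technical replicates had been summed, and those of the reprogramming experiment were 150 nt paired, with 13421854 to 19704195. Counts measure relative abundance within a library only.

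Each experiment was fitted with edgeR 4.0.16 (R 4.3.3) on all genes passing filterByExpr (minimum count 10, minimum total 15), with TMM scaling, 1 coefficient per condition and the quasi-likelihood F test, on 16110 genes for polarization and 14172 genes for reprogramming. Differences across experiments came from a fit on all 45 samples (15835 genes). P-values were adjusted by Benjamini-Hochberg with a threshold of 0.05. The standard error was the log2 fold change divided by the square root of F. The procedure was tested on simulated data. Alternatives were DESeq2 1.42.0, RLE size factors, other filters, a fold threshold, only the groups compared in the model, separate technical replicates, M2-like mock as the reference, the replicate number as a block, leaving out each sample, and, chosen after seeing the data, scaling to library totals. Levels per kb were also computed with the longest transcript of each gene. Same-numbered polarization samples are of 1 mouse, and their deviations from the group means had a median correlation of 0.25 over 9 pairs (-0.135 over 18 other pairs). The block changed no call of that experiment.

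The members and lists were chosen with earlier results of these data known. Named besides the members were, from each list, up to 2 genes with the largest rise and up to 2 with the largest fall among those that passed with a mean log2 CPM of at least 2 in M1-like against M2-like at 24 h or in iM1 against the negative pool, of which the text gives part, every measured gene of the list of other oxidase genes, and the 3 genes most like each member.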

Additional observations from a re-analysis of the deposited data

Results flagged for a closer look

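The effect of polarization differed between settings, by a test of the difference itself (edgeR's quasi-likelihood test with Benjamini-Hochberg adjustment), in 16 values, all of them log2 differences. M1-like against M2-like was lower in untransfected samples of the reprogramming experiment than at 24 h for Cybb (-2.88, SE 0.14, adjusted p = 5.489e-19), Cyba (-0.78, adjusted p = 3.27e-05), Ncf1 (-0.92, adjusted p = 1.275e-10), Ncf4 (-0.87, adjusted p = 6.475e-10) and Rac2 (-1.37, adjusted p = 8.616e-12). In the untransfected samples Cybb had 0.53, and Cyba (-0.15), Ncf1 (-0.083), Ncf4 (-0.24) and Rac2 (-0.15) had the sign opposite to 24 h. With library totals Cyba (0.042), Ncf1 (0.11) and Rac2 (0.04) were positive there. The difference of Cyba did not pass with library totals (-0.18, adjusted p = 0.2697).

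In the same setting M1-like against M0 differed for Cybb (-1.74, adjusted p = 4.822e-13) and Ncf4 (-0.67, adjusted p = 1.873e-07), and for Cyba (-0.50, adjusted p = 0.005504), Ncf1 (-0.36, adjusted p = 0.001493) and Rac2 (-0.32, adjusted p = 0.03029), whose signs change with library totals. Rac2 did not pass without 24 h M0 replicate 3 (adjusted p = 0.05598), 24 h M1-like replicate 3 (0.08925), untransfected M0 replicate 1 (0.07286) or untransfected M1-like replicate 2 (0.1463). M2-like against M0 was higher in the untransfected samples for Cybb (1.14, adjusted p = 2.489e-07), Ncf1 (0.56, adjusted p = 3.79e-05) and Rac2 (1.05, adjusted p = 1.134e-07). The culture cannot be told apart from read length and sequencing facility in these values.

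Within the reprogramming experiment, M1-like against M0 was lower in mock than in untransfected samples for Cybb (-0.53, SE 0.14, adjusted p = 0.01078), Cyba (-0.46, adjusted p = 0.03041) and Rac2 (-0.51, adjusted p = 0.003302). Cybb and Cyba did not pass with library totals (adjusted p = 0.05323 and 0.06434) or with only the groups compared in the model (0.05511 and 0.05922). Cyba also lost its call without M0 replicate 2 or 3, M0 mock replicate 1 or 2, M1-like replicate 3 or M1-like mock replicate 1 or 2 (adjusted p from 0.05142 to 0.1069), and Ncf4 passed without M1-like replicate 1 (-0.30, adjusted p = 0.04383).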

How the results depend on the processing

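When a log2 fold change of 1 or more in size was required as well, the genes called of 5 were 1 in M1-like against M0 and in M2-like against M0 at 24 h, 2 in M1-like against M2-like at 24 h, and, for differences from 24 h, 2 in M1-like against M2-like, 1 in M1-like against M0 and 2 in M2-like against M0, and 0 in every other comparison. With library totals, 3 genes were called in M1-like against M0 at 24 h, 0 in M1-like against M0 mock, 2 in M1-like against M2-like mock, 1 in untransfected M2-like against M0 and in M1-like against M2-like, 5 in iM1 and 4 in the Myc pool against the negative pool, 1 for the Stat6 pool, and 1 in M1-like against M0 for mock minus untransfected and for untransfected minus 24 h. The share of all genes called is not given for the fold threshold, library totals or the settings below. The backgrounds given above therefore do not apply to these counts. Library totals moved the median gene by 0.13 on the log2 scale in iM1 and in the Myc pool against the negative pool. Values that reversed with library totals were Ncf1 in M1-like against M0 at 24 h (-0.20), Ncf1 (0.038) and Ncf4 (0.03) in M1-like against M2-like mock, and, for M1-like against M0 in untransfected minus 24 h, Cyba (0.018), Ncf1 (0.16) and Rac2 (0.19). Without a filter, calls were 2 in M1-like against M2-like mock, 1 in M2-like mock against untransfected, 0 in negative pool against mock (also with RLE size factors) and 1 in M1-like against M2-like for mock minus untransfected. With only the groups compared in the model, they were 1 in untransfected M1-like against M0, with the Stat6 pool and in M1-like against M0 for mock minus untransfected. DESeq2 gave 1 with the Stat6 pool and 1 in M1-like against M2-like for mock minus untransfected, and so did the replicate block. The block kept 121 of 125 calls and added Cyba in untransfected M2-like against M0 (adjusted p = 0.01288) and with the Myc pool (0.02097), Rac2 with the Stat6 pool (0.03305) and Cybb in the last difference (0.04529), and changed no other call. In the reprogramming experiment the labels share only a number, although 34 of 36 samples correlated best with their own number (131 of 198 pairs over 0.1). With mock as the reference, 2 genes passed with the Pparg pool. Leaving out 1 library gave 2 to 3 calls in M1-like against M0 mock, 2 to 4 in M1-like against M2-like mock, 1 to 2, 1 to 3 and 2 to 3 in untransfected M1-like against M0, M2-like against M0 and M1-like against M2-like, 2 to 4 in M0 and 0 to 1 in M2-like mock against untransfected, 0 to 0 in negative pool against mock, 2 to 3 in iM1 against mock and against the negative pool, and 2 to 4, 0 to 1 and 4 to 5 for M1-like against M0 and M1-like against M2-like in mock minus untransfected and M1-like against M0 in untransfected minus 24 h. In all, 821 of 900 such values kept direction and call. Except where a construction explains it, as with the fold threshold or fewer samples, the cause was not tested. The 3 samples per group limit which small differences can pass.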
